A study of Xenopus laevis with 8 samples.

Results

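The regulators described here are Snail, Twist and AP-2 transcription factors and the Myc proteins c-Myc and N-Myc, measured in *Xenopus laevis* animal caps with and without active EBF3. Their probes were chosen from the name and description fields of the array. The rule used no measured values, but it was set with earlier results of these data known. Of 21495 probes for genes, 9 carried a matching name, and 6 of these were members. The other 3 were probes of different genes. Of these, *twisted gastrulation* only shares letters with Twist, while the names or descriptions of *ndrg1* and *ap-2rep* mention N-myc and AP-2. The members were *snail*, *slug beta*, *Tcfap2a*, c-myc II, c-myc I and *mycn*, and no probe matched Twist itself.

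The study asked which genes change when EBF3, a helix-loop-helix factor of neuronal differentiation, becomes active in ectoderm. Embryos of all groups had received 0.2 ng of Noggin mRNA, which neuralizes the animal cap, a sheet of blastula cells fated to become ectoderm. On 4 active EBF3 arrays, caps with 1 ng of hGR-XEBF3 mRNA and 30 μM dexamethasone (DEX) for 4.5 hours, labeled with Cy3, were set against untreated caps with the same mRNA, labeled with Cy5. On 4 DEX control arrays, the Cy3 caps carried 0.4 ng of hGR mRNA, without EBF3, and DEX, and the Cy5 caps were again untreated caps with hGR-XEBF3. Caps were taken at stage 9. hGR-XEBF3 is EBF3 joined to the hormone-binding part of the human glucocorticoid receptor, so that DEX switches it on, and it was made from injected mRNA throughout the cap and not in the cells that normally express *ebf3*. Every value is a log2 ratio of Cy3 to Cy5, above 0 where the DEX-treated caps gave more signal. The dyes were never exchanged between conditions, and any dye bias of a probe enters all its ratios alike. On the DEX control arrays, an effect of DEX or hGR and an effect of inactive hGR-XEBF3 in the untreated caps cannot be told apart.

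The neural crest arises at the border between neural plate and epidermis. Border factors such as Pax, Zic, Msx and Dlx proteins precede crest specifiers, among them Snail1, Snail2 (Slug), Twist, FoxD3 and SoxE proteins, and crest cells later leave the neural tube by changing their adhesion. AP-2α acts in epidermis, at the border and in the crest, and c-Myc in frog embryos is known to hold crest precursors at the border through Id3. Myc proteins bind DNA with their partner Max and are known for driving growth and ribosome production.

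Replicates 1 and 2 were read from arrays with 1 spot per probe, and replicates 3 and 4 from another array design with 2 spots per probe, all 4 arrays of which lay on 1 slide. Array design, scan resolution and replicates 1 and 2 against 3 and 4 cannot be told apart. In Cy3, 51.8% to 58.9% of probes gave a signal well above background, and in Cy5 58.6% to 62.9% did. A probe was called when limma's Benjamini-Hochberg adjusted p was under 0.05 and the mean change at least 2-fold. The paper describes 4 biological replicate experiments, but the labels do not say whether these came from separate clutches. The p-values measure the spread between these samples, part of which may be technical.

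On the active EBF3 arrays, 1 of the 6 members was called higher, c-myc II, and 1 was called lower, *mycn*. Over all 21357 probes tested on these arrays, 3.03% were called higher and 2.84% lower. The median log2 ratio of the 6 members was -0.37, beside 0.08 over all probes. On the DEX control arrays 0 of 6 members were called in either direction, as was 0% of all 21256 probes, and 1 member, *slug beta*, had an unadjusted p under 0.05. The methods' t-test, with its p-values adjusted in the same way, called 0 members on either set of arrays. The methods do not say whether the channels were paired. Run here as unpaired, this test ignores that both channels share an array, so differences in level between arrays add to its spread. On the active EBF3 arrays it called 0.904% of all probes higher and 0.379% lower, and on the DEX control arrays 0%. The members' median on the DEX control arrays was -0.15, beside 0.09 over all probes. In the comparison of active EBF3 with DEX control arrays, 0 of 6 members were called in either direction, beside 2.42% of 21197 probes called higher and 1.44% called lower. The arrays were not paired by replicate in this comparison. Group differences below have unpaired intervals and p-values unless the replicate is named as a block. Unadjusted p was under 0.05 for 3 members in that comparison, *Tcfap2a*, c-myc II and *mycn*. The share of all probes with an unadjusted p under 0.05 is not given here. No such count, for the members or for the lists below, is therefore read as an excess.

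**Figure D1:**
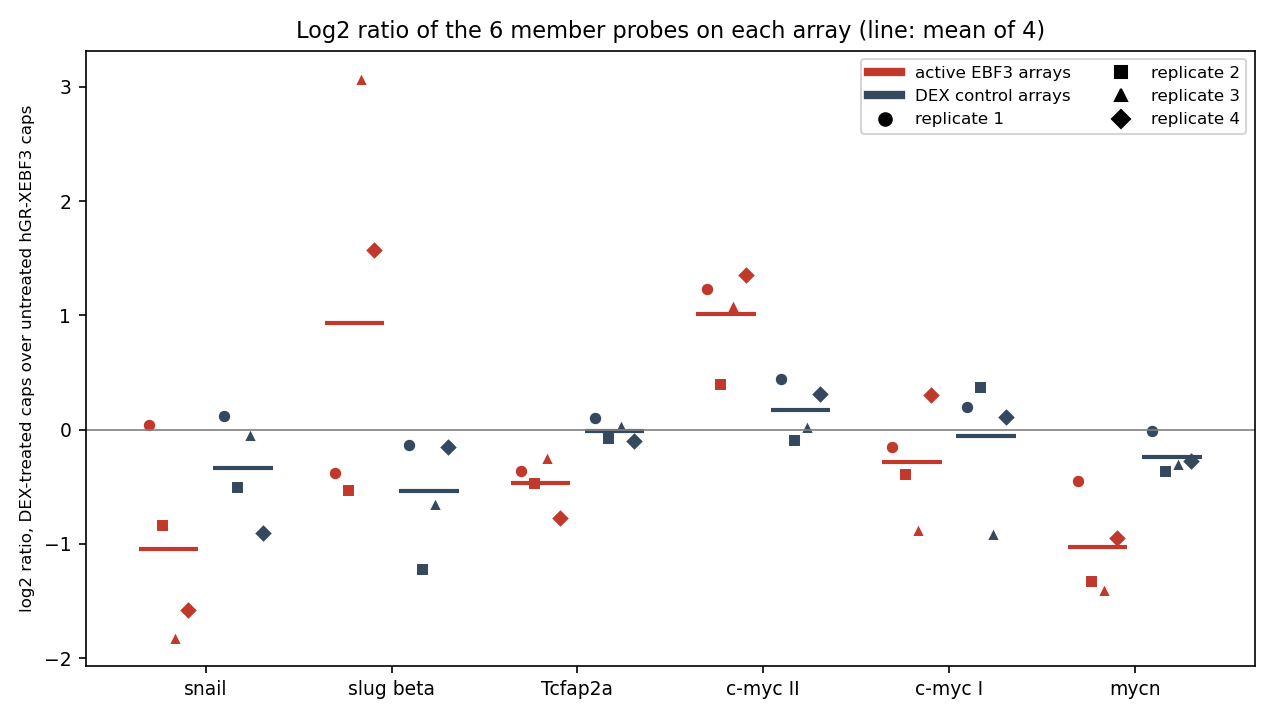
Log2 ratio of DEX-treated over untreated hGR-XEBF3 caps (vertical axis) of the 6 members, with 1 point per array, the marker giving the replicate, color giving the group and a line at the mean of 4 arrays. The active EBF3 values of *Tcfap2a* and *mycn* lie below all DEX control values, those of *slug beta* range from -0.53 to 3.07, and those of *snail* from -1.82 to 0.04.

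*Snail* encodes the zinc finger repressor Snail1, expressed in early crest and in mesoderm, which is known for lowering E-cadherin. Its log2 ratio was 0.04, -0.83, -1.82 and -1.58 on the active EBF3 arrays of replicates 1 to 4. Its DEX control values were 0.12, -0.50, -0.05 and -0.90. Replicate 1 did not differ from 0 by more than a few hundredths on the active arrays while replicates 3 and 4 were low, and the groups overlapped. In signal units, the active array of replicate 3 read 566 in Cy3 and 2000 in Cy5, and that of replicate 1 read 6530 and 6330. All 16 readings of the probe, in 2 channels of 8 arrays were well above background.

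The mean of *snail* was -1.05 ± 0.84 (SD, n = 4), a 2.06-fold lower level that was not called (adjusted p = 0.115). It was -0.33 ± 0.46 on the DEX control arrays (adjusted p = 0.400). The groups differed by -0.71, with a 95% interval from -1.67 to 0.24 (adjusted p = 0.58, or 0.23 with the replicate as a block). This unpaired interval holds both no difference and a more than 2-fold lower level. Without replicate 1, the active EBF3 mean was -1.41 and met the threshold (adjusted p = 0.0321). The low mean of *snail* rested on 3 of the 4 arrays.

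*Slug beta*, matched by gene number to *snai2.S*, encodes a Snail2 repressor of the premigratory crest. It read -0.38 and -0.53 on the active EBF3 arrays of replicates 1 and 2, and 3.07 and 1.57 on those of replicates 3 and 4. Its DEX control values were -0.13, -1.22, -0.65 and -0.15, all below 0. The active arrays therefore fell on both sides of 0, split by array design, and the probe was dim in replicates 3 and 4. Cy3 signals of 69.7 and 51.8 in replicates 3 and 4 stood against Cy5 signals of 8.28 and 17.5, and the first of these Cy5 readings was not well above background.

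In replicates 1 and 2, the Cy3 signals of *slug beta* on the active EBF3 arrays were 181 and 309 and its Cy5 signals 236 and 444. The Cy3 reading of 181 was not well above background. On the DEX control arrays of replicates 3 and 4, its Cy3 signals, 4.99 and 10.9, were not well above background. Nor was its Cy5 signal of 12.1 on that of replicate 4. The mean over the active EBF3 arrays was 0.93 ± 1.72 (SD, n = 4; adjusted p = 0.381), and over the DEX control arrays -0.54 ± 0.52 (adjusted p = 0.255). The difference of 1.47 had a 95% interval from -0.26 to 3.20 (adjusted p = 0.49, or 0.25 with the replicate as a block). Restricted to replicates 1 and 2, the active mean was -0.45, and restricted to replicates 3 and 4 it was 2.32. These arrays give no settled direction for *slug beta*.

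**Figure D2:**
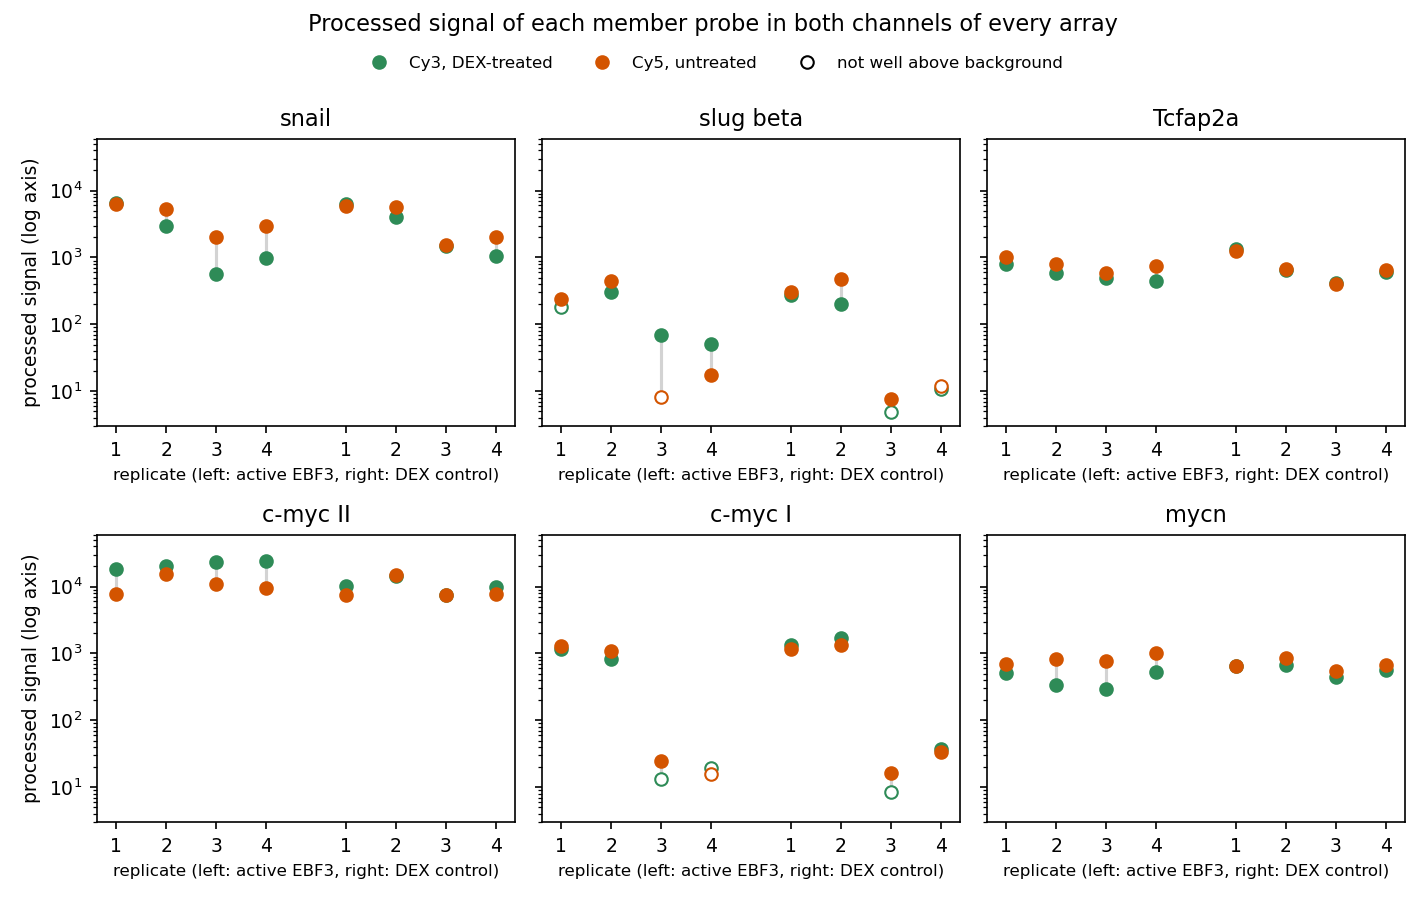
Processed signal on a log axis (vertical) in Cy3 (DEX-treated caps, green) and Cy5 (untreated caps, orange) of each member on 8 arrays, numbered by replicate, with open points where the channel was not well above background. *Slug beta* and c-myc I are far dimmer in replicates 3 and 4 than in replicates 1 and 2, whereas c-myc II stays between 7430 and 24300 on all arrays.

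The only text match for Twist was *twisted gastrulation*, a secreted protein that binds BMP and Chordin and is unrelated to the Twist helix-loop-helix factors. It fell on all 4 active EBF3 arrays, by 2.13 ± 0.27 on the log2 scale (SD, n = 4; 4.38-fold, adjusted p = 0.00188). Its active arrays were 2.17 below the DEX control arrays (4.5-fold, adjusted p = 0.000485). Since it was matched by letters alone, this value says nothing of Twist.

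*Tcfap2a* encodes AP-2α, an activator in epidermis, neural plate border and crest. Its log2 ratio was -0.36, -0.47, -0.25 and -0.77 on the active EBF3 arrays of replicates 1 to 4. The DEX control arrays gave 0.10, -0.07, 0.03 and -0.10, each close to 0. The active arrays were thus all below 0 and below each control array, a pattern of no overlap that 5.25% of all 21197 probes showed in this direction. *mycn* showed it too, and 0 of 6 members had all active arrays above all control arrays, which 4.9% of probes did. Signals were moderate, between 406 and 1340 units, and well above background in both channels of all arrays.

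The mean of *Tcfap2a* on the active EBF3 arrays was -0.46 ± 0.22 (SD, n = 4), a 1.38-fold lower level (adjusted p = 0.114). The DEX control mean was -0.01 ± 0.09 (adjusted p = 0.974). The groups differed by -0.45, with a 95% interval from -0.81 to -0.09 (adjusted p = 0.217, or 0.0864 with the replicate as a block). A 2-fold lower level lies outside this unpaired interval. The change was small beside those of c-myc II and *mycn* but the spread between replicates was the smallest of the 6 members on the active arrays.

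*c-myc* and *mycn* encode related helix-loop-helix factors that pair with Max. They were covered by 3 member probes, which did not read alike. c-myc II read 1.23, 0.40, 1.08 and 1.35 on the active EBF3 arrays of replicates 1 to 4, above 0 on 4 of 4. The DEX control arrays gave 0.44, -0.09, 0.02 and 0.31. Replicate 2 had the lowest active value, and it lay just below the highest control value, that of replicate 1, so that the groups overlapped by this pair alone. c-myc II was the brightest member, with Cy3 signals of 18400, 20400, 23200 and 24300 and Cy5 signals of 7850, 15400, 11000 and 9530 on the active EBF3 arrays.

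The c-myc II level rose 2.02-fold on the active EBF3 arrays, with a mean log2 ratio of 1.02 ± 0.43 (SD, n = 4; standard error 0.19; adjusted p = 0.0345). The DEX control mean was 0.17 ± 0.25 (adjusted p = 0.54). The difference between groups was 0.85 (1.8-fold, 95% interval from 0.30 to 1.39, adjusted p = 0.108, or 0.0298 with the replicate as a block). The rise was just past the 2-fold threshold and no longer met both thresholds without replicate 1 (0.94, adjusted p = 0.0723), replicate 3 (0.99, adjusted p = 0.138) or replicate 4 (0.90, adjusted p = 0.131). With each array centered on its median, the mean was 0.91, under 2-fold.

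*mycn* encodes N-Myc, which is known in neural and other progenitors. Its log2 ratio was -0.45, -1.32, -1.40 and -0.95 on the active EBF3 arrays and -0.01, -0.36, -0.30 and -0.27 on the DEX control arrays. The active arrays lay below 0 on 4 of 4 and below each of the control arrays. In signal units, Cy3 was 514, 335, 297 and 532 and Cy5 was 702, 837, 784 and 1030 on the active EBF3 arrays, well above background in each case. The lower readings were those of the DEX-treated caps in every replicate.

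The *mycn* level fell by 1.03 ± 0.43 on the log2 scale (SD, n = 4; standard error 0.20; 2.04-fold, adjusted p = 0.0338). The DEX control mean was -0.24 ± 0.16 (adjusted p = 0.342). The groups differed by -0.80 (1.74-fold, 95% interval from -1.31 to -0.28, adjusted p = 0.113, or 0.0396 with the replicate as a block). The call was lost without replicate 2 (-0.94, adjusted p = 0.138), replicate 3 (-0.91, adjusted p = 0.139) or replicate 4 (-1.06, adjusted p = 0.124), and held without replicate 1 (-1.23, adjusted p = 0.018). With normexp background correction and loess, the mean was -0.72 (adjusted p = 0.0663).

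Within each array, the log2 ratio of c-myc II exceeded that of *mycn* by 1.68, 1.72, 2.48 and 2.31 on the active EBF3 arrays and by 0.45, 0.27, 0.32 and 0.58 on the DEX control arrays. The mean excess was 2.05 ± 0.41 on the active EBF3 arrays and 0.41 ± 0.14 on the DEX control arrays (SD, n = 4 each). These differences are given without a test, since the probes were set against each other with their values known. They are ratios within an array and show unequal change only.

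c-myc I, the alternative first exon of the other *c-myc* copy, was not called on any set of arrays. It read -0.15, -0.39, -0.88 and 0.30 on the active EBF3 arrays and 0.20, 0.37, -0.91 and 0.11 on the DEX control arrays. Both groups spread over both signs and overlapped. The active mean was -0.28 ± 0.49 (SD, n = 4; adjusted p = 0.427) and the control mean -0.06 ± 0.58 (adjusted p = 0.924). The difference was -0.23, with a 95% interval from -1.0 to 0.55 (adjusted p = 0.896, or 0.494 with the replicate as a block). The unpaired interval reaches a 2-fold lower level.

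The c-myc I probe gave far lower signals in replicates 3 and 4. Its Cy5 signal was 1300 and 1100 on the active EBF3 arrays of replicates 1 and 2, and 24.4 and 16 on those of replicates 3 and 4. Relative to the median Cy5 signal of the array, its log2 level was between 2.04 and 2.97 on the 4 arrays of replicates 1 and 2 and between -2.01 and -0.38 on the 4 arrays of replicates 3 and 4. A difference of this size between the array designs, 3.50 on the log2 scale, was reached by 2.26% of 21197 probes. For *slug beta* the same difference was 2.69, reached by 10.9% of probes. The other 4 members went the other way, with differences between -0.84 and -2.30 on the same scale. Whether a probe of the same name had the same sequence in both array designs was not tested, so that means of *slug beta* and c-myc I over 4 arrays assume that it did.

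**Figure D3:**
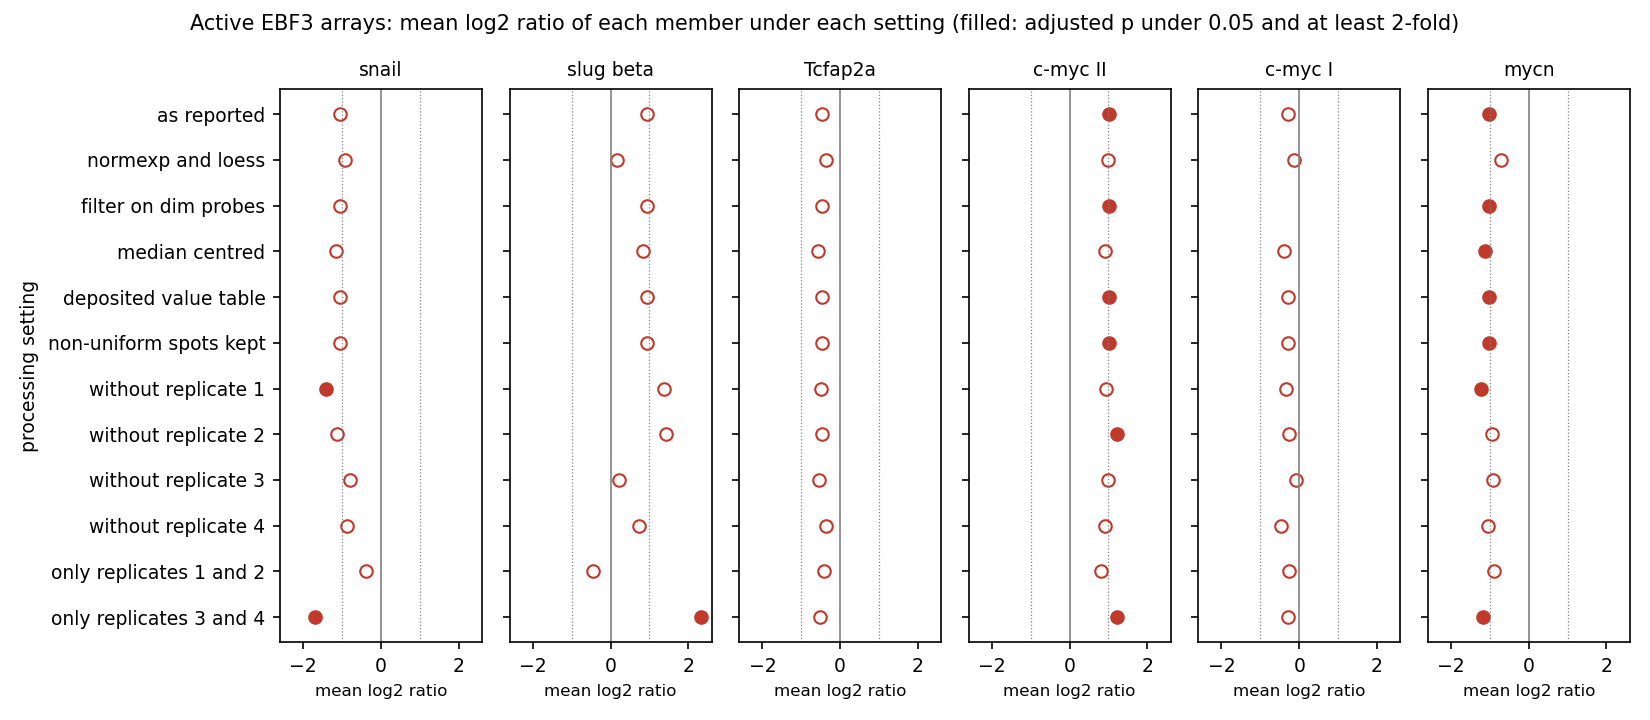
Mean log2 ratio of each member on the active EBF3 arrays (horizontal axis) under each way of processing (rows), filled where the adjusted p was under 0.05 and the change at least 2-fold, with dotted lines at 2-fold. c-myc II stays above 0 and *mycn* below 0 in every row, *slug beta* changes sign between replicates 1 and 2 (-0.45) and replicates 3 and 4 (2.32), and *snail* is filled without replicate 1 and with replicates 3 and 4 only.

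The array names the 2 *c-myc* copies apart, and by the annotation c-myc II matched *myc.L* and c-myc I matched *myc.S*. *Snail* and *Tcfap2a* matched *snai1.S* and *tfap2a.S*, while *mycn* matched both *mycn.L* and *mycn.S*. *Xenopus laevis* keeps paired gene copies, L and S, from an ancient genome duplication, and the share of a probe's signal that came from the other copy was not tested.

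Among 9 probes for neural plate border genes, covering 8 of the 12 genes followed here, 1 was called higher and 1 was called lower on the active EBF3 arrays. *pax7*, a paired-box border factor, rose 11.4-fold (log2 ratio 3.51 ± 0.65, adjusted p = 0.00206), and was 2.76, 3.38, 4.35 and 3.54 in replicates 1 to 4. *zic1*, a zinc finger factor of the early neural plate and its border, fell by 2.43 ± 0.61 on the log2 scale (adjusted p = 0.00558). The same 2 probes were called against the DEX control arrays, *pax7* by 3.51 (adjusted p = 0.000424) and *zic1* by -2.27 (adjusted p = 0.0026). In that comparison, with the replicate as a block, *zic5* was called as well (2.41, adjusted p = 0.0276). *zic5* read 1.29 ± 1.08 on the active EBF3 arrays (adjusted p = 0.118) and -1.12 ± 1.16 on the DEX control arrays, and the groups overlapped. Without replicate 3, the count called higher on the active EBF3 arrays was 2. The median of these probes on the active EBF3 arrays was 0.71. *hairy2b*, at 0.71 ± 0.18 (adjusted p = 0.0334), was under 2-fold and did not overlap its control arrays, while *hairy2* was at -0.12 (adjusted p = 0.529).

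Among 8 probes for the other crest specifiers, covering 6 of 6 genes, 2 were called higher and 1 was called lower on the active EBF3 arrays. *sox8*, a SoxE factor of early crest, rose 18.6-fold (log2 ratio 4.22 ± 1.42, adjusted p = 0.00993), and without replicate 4 it missed the threshold (adjusted p = 0.0835). *foxd3*, a forkhead repressor of premigratory crest, rose 2.33-fold (1.22 ± 0.36, adjusted p = 0.0144), and missed it without replicate 2 (adjusted p = 0.0756) or replicate 3 (adjusted p = 0.0687). *id3*, a helix-loop-helix inhibitor known as a c-Myc target in frog crest, fell by 1.04 ± 0.40 (adjusted p = 0.0283). The *id3* call was lost without replicate 2 (adjusted p = 0.124), 3 (adjusted p = 0.0553) or 4 (adjusted p = 0.108). The list's median was 0.10 on the active EBF3 arrays, near that of all probes.

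Against the DEX control arrays, *sox8* was higher by 4.87 (adjusted p = 0.00272) and *foxd3* by 1.25 (adjusted p = 0.023), and *id3*, at -0.58, was not called (adjusted p = 0.405). *foxd3* was not called there with the replicate as a block (adjusted p = 0.0713), nor without replicate 1 (adjusted p = 0.0991), 2 (adjusted p = 0.172) or 3 (adjusted p = 0.195). The DEX control signals of *sox8* were dim, with Cy3 well above background on 1 of 4 arrays. Its active EBF3 Cy3 signals were 1660, 2300, 2530 and 2940, each well above background. On the active EBF3 arrays the called crest genes thus included *sox8* and *foxd3* with higher signal and *id3* with lower signal, and none of the 2 Snail probes. Both *sox9* probes read lower there without being called, at -0.99 (adjusted p = 0.064) and -0.85 (adjusted p = 0.0951).

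**Figure D4:**
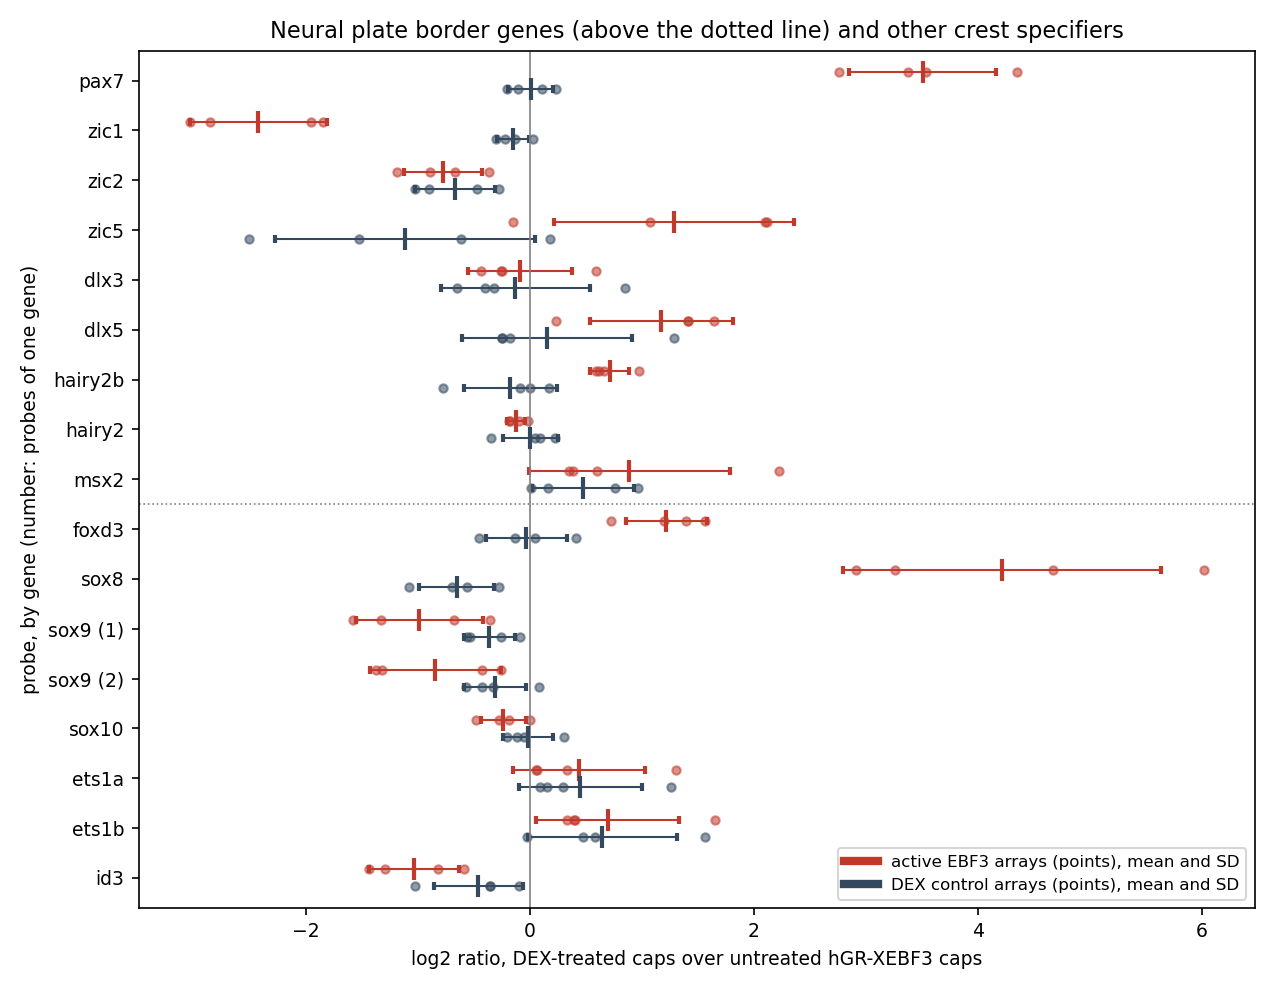
Log2 ratios (horizontal axis) of border genes and other crest specifiers on the active EBF3 arrays (red) and the DEX control arrays (dark blue), with 1 point per array and a bar for the mean and SD of 4. *pax7*, *hairy2b* (mean 0.71), *foxd3* and *sox8* lie to the right of all their control points and *zic1* to the left. *sox10* (mean -0.24) and *hairy2* (mean -0.12) stay near 0.

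Of 8 probes for crest migration and adhesion genes, covering 7 of 10 genes, 0 were called in either direction on the active EBF3 arrays and 5 had an unadjusted p under 0.05. The methods' t-test called 0 as well. *itga5*, the integrin α5 subunit, was at -0.84 ± 0.15 (adjusted p = 0.0177), under 2-fold. *cdh1*, E-cadherin, which Snail factors are known to repress, was at -0.35 ± 0.11 (1.28-fold lower, adjusted p = 0.151). Its DEX control mean was 0.23 ± 0.10 and the groups did not overlap, a pattern that 5.25% of all probes showed in this direction. Others in this list read higher. *cdh11* was at 1.26 ± 1.08 (adjusted p = 0.126), *cdh6* at 0.39 (adjusted p = 0.189) and a *cdh2* probe at 0.07 (adjusted p = 0.737). *cdh11* was well above background in Cy5 on 2 of the 4 active EBF3 arrays and *cdh6* on 0. Another *cdh2* probe was at -0.65 (adjusted p = 0.287), *cdh3* at -0.33 (adjusted p = 0.168) and *epha4* at -0.33 (adjusted p = 0.247). The list's median on the active EBF3 arrays was -0.33. Against the DEX control arrays 0 of 8 were called and 4 had an unadjusted p under 0.05.

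Of 8 probes for ectoderm genes where AP-2 acts, covering 5 of 6 entries, 1 was called higher and 2 were called lower on the active EBF3 arrays. *foxi1*, a forkhead factor of epidermis, fell by 3.61 ± 1.12 (12.2-fold, adjusted p = 0.0082) and missed the threshold without replicate 4 (adjusted p = 0.0619). A keratin probe, *krt70*, fell by 1.29 ± 0.63 (adjusted p = 0.0388), and its call was lost without replicate 1 (adjusted p = 0.0772), 2 (adjusted p = 0.135) or 4 (adjusted p = 0.128). It read -0.80 ± 1.72 on the DEX control arrays, and the groups differed by -0.48 (adjusted p = 0.901). A second *krt70* probe read -0.63 ± 0.85 on the active EBF3 arrays (adjusted p = 0.283). The probe called higher was for *tp63*, the p63 factor of basal epidermis, and its Cy5 channel was not well above background on any array, while Cy3 was on 2 of the 4 active EBF3 arrays. The call rested on the measured mean log2 ratio of 1.89, tested against 0 (adjusted p = 0.0142). The size of this ratio is open to dye bias and not firm, since Cy5 was dim throughout and Cy3 was itself dim on the other active EBF3 arrays. The call was lost with normexp and loess, where the mean was 0.23 on the log2 scale (adjusted p = 0.0882). The probe was not called without replicate 2 (adjusted p = 0.0668) or 4 (adjusted p = 0.0886), and a second *tp63* probe read -0.03 (adjusted p = 0.92). The list's median was -0.43. Against the DEX control arrays 0 of 8 were called and 2 had an unadjusted p under 0.05, and with the replicate as a block *foxi1* was called (-2.95, adjusted p = 0.0491).

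For the Myc network, 4 probes covered 2 of 7 genes, *max* and *L-myc*. Both *L-myc* probes, for a further Myc protein, fell on the active EBF3 arrays. L-myc1 fell by 1.44 ± 0.27 (2.71-fold, adjusted p = 0.00643) and L-myc2 fell by 1.87 ± 0.55 (3.67-fold, adjusted p = 0.00942; adjusted p = 0.0666 without replicate 4). From the DEX control arrays they differed by -1.48 (adjusted p = 0.00226) and -1.96 (adjusted p = 0.00352), with no overlap of the groups. The 2 probes of *max*, the shared partner of Myc proteins, were at -0.37 ± 0.23 (adjusted p = 0.178) and 0.15 ± 0.17 (adjusted p = 0.482). The list's median was -0.90. Among Myc probes, then, c-myc II was called higher and *mycn*, L-myc1 and L-myc2 lower on the active EBF3 arrays. Against the DEX control arrays L-myc1 and L-myc2 were called, while c-myc II and *mycn* were not, and c-myc I was called in neither comparison.

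Of 9 probes for Myc target genes, covering 7 of 9 genes, 0 were called higher and 1 was called lower on the active EBF3 arrays. *eif4e*, the cap-binding translation factor, fell by 1.38 ± 0.38 (adjusted p = 0.0114), and its call was lost without replicate 2 (adjusted p = 0.0627), 3 (adjusted p = 0.0566) or 4 (adjusted p = 0.0658). *odc1*, ornithine decarboxylase of polyamine synthesis, was at 0.32 ± 0.18 (adjusted p = 0.205). *ncl*, nucleolin of the nucleolus, was at -0.52 ± 0.21 (adjusted p = 0.0836). The *ldha* probes were at 0.89 ± 0.50 (adjusted p = 0.0655), 0.52 ± 0.55 (adjusted p = 0.22) and 0.22 ± 0.21 (adjusted p = 0.354). Only the first of these did not overlap its control arrays. None of the 8 probes tested was called against the DEX control arrays (0 of 8) and 3 had an unadjusted p under 0.05. The list's median on the active EBF3 arrays was 0.21.

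**Figure D5:**
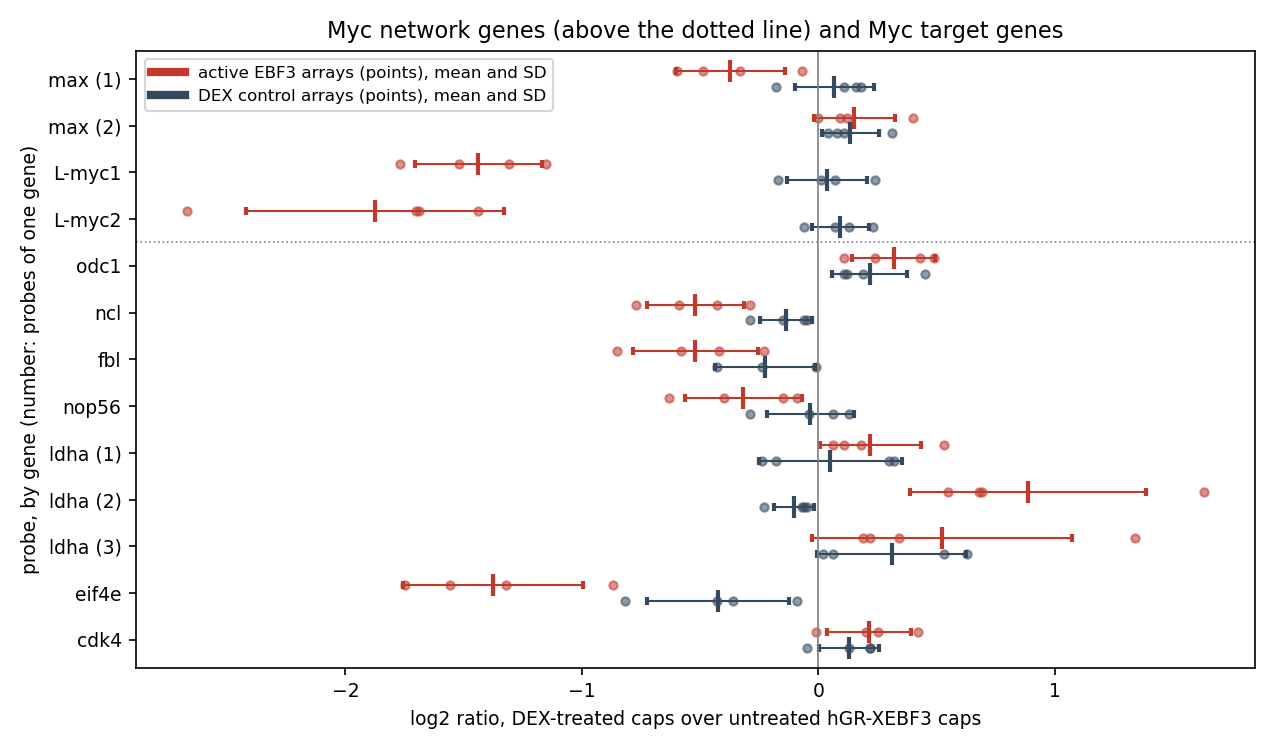
Log2 ratios (horizontal axis) of the Myc network and of Myc target genes on the active EBF3 arrays (red) and DEX control arrays (dark blue), with 1 point per array and a bar for the mean and SD (n = 4, and n = 3 for *fbl* on the control arrays). L-myc1, L-myc2 and *eif4e* lie to the left of all their control points, and the *ldha* probe with a mean of 0.89 to the right. The means of *odc1* (0.32) and *max* (-0.37 and 0.15) lie near 0.

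On the DEX control arrays 0 of the 44 list probes tested were called in either direction, by limma or by the methods' t-test. An unadjusted p under 0.05 was found for 9 of them, a count without the share over all probes beside it. Markers of the cell types that caps can hold were read on all 8 arrays. On the active EBF3 arrays, the summed signal of 2 muscle markers had log2 ratios between 4.88 and 6.23, against 0.19 to 0.84 on the DEX control arrays. In the same order of groups, that of 3 neuron probes, for *neurod1* and *nefm*, lay between 3.93 and 4.69, against -0.27 to 0.51. That of 3 early mesoderm markers lay between 0.11 and 3.36, against -0.20 to 0.68, and the *brachyury 3* probe was well above background on 0 arrays. The cement gland marker *agr2* lay between -5.95 and -3.20, against -2.54 to 0.14, and 3 endoderm markers between -3.62 and -0.44, against -1.34 to 0.29. In Cy5, 0 of 2 muscle, 1 of 3 neuron, 1 of 3 early mesoderm and 1 of 3 endoderm probes were well above background on all 8 arrays. Of 6 neural ectoderm probes, 5 were well above background in Cy5 on all 8 arrays, and their sum lay between -1.50 and -0.68, against -0.12 to 0.01. Of 6 epidermis probes 4 were so, with a sum between -1.55 and 0.41, against -0.21 to 0.78. The part of these markers in the members' values was not tested, and in pooled caps fewer cells of a type and less RNA per cell cannot be told apart.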

How the data were processed

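The 8 arrays, 4 active EBF3 and 4 DEX control, were two-color Agilent arrays of animal cap RNA. Groups, dyes and replicate numbers came from the sample labels and the study's methods. The authors deposited scanner output in which the processed signal of each spot is an intensity, corrected for background and LOWESS-normalized between dyes by Feature Extraction (version 8.1.1.1 for replicate 1 and 9.1.3.1 for the others, per the file headers). The deposited output also holds a log10 ratio of Cy5 to Cy3. The processed values deposited beside it are log10 ratios of Cy3 to Cy5, which matched the scanner ratio with the sign turned for 99.8% to 100% of values on each array. Its scale and direction were read from this match, and it was used as an alternative.

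Each spot's log2 ratio (Cy3 over Cy5) was taken from its processed signals, with R 4.3.3 and its data.table package, version 1.17.8. Non-uniform spots and controls were dropped, leaving 0 to 228 probes without a value per array, and spots of a probe were averaged. A probe counted as well above background when at least 0.5 of its spots did. Log ratios were not centered between arrays. Array medians lay between -0.08 and 0.24. Group means were tested against 0, and active EBF3 against DEX control arrays, with limma 3.58.1 (lmFit and eBayes, two-sided, Benjamini-Hochberg adjustment over all probes tested). Called probes had adjusted p under 0.05 and at least 2-fold change. Intervals are 95% intervals of the moderated statistic.

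Members, lists and alternatives were chosen with earlier results of these data known. All members are named, and genes of the lists were named where called. *itga5*, *cdh1*, *cdh2*, *cdh3*, *cdh6*, *cdh11*, *epha4*, *max*, *odc1*, *ncl*, *ldha*, *sox9*, *sox10*, *hairy2*, *hairy2b* and *zic5* were added after their values were seen. 1 gene of the border list is not reported here. Probes of the same gene were not merged. Names were looked up by symbol, synonym or gene number in RefSeq's annotation, assembly v10.1, which served for names only.

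Arrays sharing a replicate number deviated together from their group means (r = 0.591, 0.493, 0.366 and 0.574 across 21197 probes, which are not independent replicates), against -0.339 to 0.0483 for other arrays. Replicate numbers were therefore taken to pair the arrays, but the reported comparison between groups did not use this pairing. Its intervals and p-values come from an unpaired fit, and a fit blocked on replicate was an alternative. Other alternatives were normexp (offset 50) with loess, a filter on dim probes, median centering, keeping non-uniform spots, leaving out each replicate, each array design alone and the methods' t-test. On simulated arrays of 21197 probes for the active EBF3 comparison, 61 of 100 probes changed by 1.5 on the log2 scale were recovered. Of those changed by 2.5, 81 of 100 were recovered, with 5 false calls among the unchanged probes. The simulated noise was drawn independently for each array and probe, unlike the shared deviations seen here, so it says little of the real error rate. Precision is limited by the number of arrays and, where a probe is dim, by its signal over background.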

Additional observations from a re-analysis of the deposited data

Results flagged for a closer look

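For 21 named probes, no array in the 41 groups of 4 stood far enough from the others to be singled out, where chance alone would give about 1 group in 20. The tested difference between active EBF3 and DEX control arrays drew attention to 8 probes outside the 6 members. On the log2 scale it was 3.51 for *pax7*, -2.27 for *zic1*, 1.25 for *foxd3*, 4.87 for *sox8*, -1.48 for L-myc1 and -1.96 for L-myc2. It was 4.01 for *ndrg1*, matched by a description that mentions N-myc, and -2.17 for *twisted gastrulation*, matched by letters of its name only. On the DEX control arrays *ndrg1* was well above background in Cy3 on 0 of 4 arrays and in Cy5 on 1 of 4, so that its difference rests on control readings mostly not well above background.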

How the results depend on the processing

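On the active EBF3 arrays, 1 member was called higher as reported. It was 0 with normexp and loess, with median centering, with replicates 1 and 2 only and with the methods' t-test, 2 with replicates 3 and 4 only (*slug beta* added), and 0 to 1 leaving out each replicate. The member called lower, 1 as reported, became 0 with normexp and loess, with replicates 1 and 2 only and with the methods' t-test, 2 with replicates 3 and 4 only (*snail* added), and 0 to 2 leaving out each replicate. Over all probes the shares called moved as well, from 3.03% higher and 2.84% lower to 6.62% and 7.16% with replicates 3 and 4 only, 0.478% and 0.0515% with replicates 1 and 2 only, 1.54% and 1.34% with normexp and loess and 0.904% and 0.379% with the methods' t-test. Leaving out each replicate gave 1.51% to 3.41% higher and 0.716% to 3.5% lower. Both counts stayed at 1 with the filter on dim probes (passed by 5 of 6 members), the authors' own log ratios and non-uniform spots kept. The shares over all probes were then 5.44% higher and 5.99% lower with the filter and 5.05% and 4.99% with the authors' log ratios. They were 3.03% and 2.83% with non-uniform spots kept, and 3.03% and 3.81% with median centering. The fit to replicates 3 and 4 took its variance mostly from other probes (prior degrees of freedom 34.1), so its p-values say little of a single probe.

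On the DEX control arrays and between groups, 0 members were called under every alternative run. Over all probes, the shares called on the DEX control arrays were highest with replicates 3 and 4 only, 0.954% higher and 1.35% lower. Between groups they ran from 0% with replicates 1 and 2 only to 3.65% higher and 3.47% lower with the filter on dim probes. With so few members, an absence of calls is not read as a difference from these shares. With the replicate as a block, c-myc II (0.85, adjusted p = 0.0298) and *mycn* (-0.80, adjusted p = 0.0396) passed the p threshold in the paired comparison but stayed under 2-fold, and the block changed no member's call and, of the named list probes, only those of *foxd3*, *foxi1* and *zic5*.

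Signs turned for *slug beta* on the active arrays with replicates 1 and 2 only (-0.45), for *Tcfap2a* on the control arrays without replicate 2 (0.01) or 4 (0.02; range leaving out each replicate -0.05 to 0.02) and with replicates 1 and 2 only (0.02), for c-myc I on the control arrays with normexp and loess (0.07), without replicate 3 (0.23; range -0.20 to 0.23) and with replicates 1 and 2 only (0.28), for c-myc I between groups with replicates 3 and 4 only (0.11), and for *krt70* between groups without replicate 1 (0.50; range -1.17 to 0.50) and with replicates 3 and 4 only (0.87). The cause was not tested. With normexp and loess, *foxd3* (0.89), *id3* (-0.93), *tp63* (0.23) and BP736085 (-0.27) were under 2-fold on the active arrays, *ndrg1* (1.64, adjusted p = 0.125) missed the p threshold and *slug beta*, not called, moved from 0.93 to 0.17. By the methods' t-test the active-array calls of *pax7* (adjusted p = 0.0515), *zic1* (0.199), *foxd3* (0.0606), *id3* (0.802), *krt70* (1), *tp63* (1), L-myc1 (0.106), L-myc2 (0.149), *eif4e* (0.189) and BP736085 (1) were lost, and those of *sox8*, *foxi1*, *ndrg1* and *twisted gastrulation* were kept. The t-test as run here ignored that both channels share an array, which limits what these lost calls say. Dim signal limits *slug beta* and c-myc I in replicates 3 and 4.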

Other observations

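*ndrg1*, whose description names it as regulated downstream of N-myc, was not a member. The active EBF3 arrays gave log2 ratios of 2.68, 2.69, 3.98 and 5.14 (mean 3.62 ± 1.18, SD, n = 4; adjusted p = 0.00935). In Cy5 it was measured well above background on 2 of the 4 arrays, so that no exact fold is given, and with normexp and loess the mean was 1.64 (adjusted p = 0.125). Against the DEX control arrays, its call was lost without any replicate in turn (adjusted p = 0.0541 to 0.104). The probe named *ap-2rep* was at 0.14 ± 0.09 (adjusted p = 0.493).

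A probe for the expressed sequence tag BP736085, which the study's annotation likens to AP-2α and which the member rule did not match, read -0.91, -1.28, -0.97 and -1.11 on the active EBF3 arrays. Its mean was -1.07 ± 0.16 (SD, n = 4; adjusted p = 0.00958), and its DEX control values, 0.48, -0.81, -0.42 and 0.52, spread over both signs. Against the DEX control arrays it differed by -1.01 (adjusted p = 0.144). With normexp and loess the active mean was -0.27, under 2-fold, and by the methods' t-test its adjusted p was 1. Its call on the active EBF3 arrays was lost without replicate 2 (adjusted p = 0.0628) or replicate 4 (adjusted p = 0.0583), and its Cy3 channel was well above background on 2 of the 4 arrays.

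The untreated Cy5 caps carried the same mRNA on both kinds of array, yet the Cy5 signal of *pax7* differed between them. It was 1380, 1710, 377 and 1070 on the active EBF3 arrays of replicates 1 to 4, and 1030, 700, 40.6 and 51.4 on the DEX control arrays. Every active array read higher than the control array of the same replicate. For *sox8*, Cy5 was 220, 241, 38.8 and 115 on the active arrays and 221, 298, 12.6 and 11.5 on the control arrays, so that the gap was seen in replicates 3 and 4 only. These signals were not scaled between arrays, and the array-wide Cy5 median was itself higher on the active arrays of replicate 3 (44.5 against 28.2) and replicate 4 (65.6 against 45.6). That median was not higher on the active arrays of replicate 1 (273 against 295) and replicate 2 (170 against 171). What the difference in Cy5 does to the ratios was not tested.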
